A study of Mus musculus with 36 samples.

Results

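Isolated accessible regions are the stretches of open chromatin that stand alone in the genome of cultured mouse cortical neurons. They were taken by position: autosomal regions under 2000 bp wide with no other listed region within 100 kb of either end. The rule found 896 of the 76570 listed regions, or 1.19% of the 75322 autosomal ones. Chromatin accessibility was measured by ATAC-seq, in which the Tn5 transposase cuts and tags DNA that is not covered by nucleosomes. All libraries came from primary cortical neurons of E16.5 mouse embryos, kept for 7 days in vitro and then for 2 h in TTX and APV, which silence sodium channels and NMDA receptors. There were 5 libraries from wild-type embryos (WT) and 7 from ACTL6B -/- embryos (KO), and 55000 neurons were used for each. The series text calls them biological replicates, and whether embryos were pooled is not stated. The labels give the genotype alone and name no promoter or Cre driver. Neuronal and glial marker genes were not analysed here, so the cell make-up of the cultures was not checked.

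ACTL6B (also called BAF53B) is an actin-related subunit of the BAF complex that replaces its relative ACTL6A when neural progenitors become neurons. BAF complexes use ATP to slide and evict nucleosomes and so set the accessibility of promoters and enhancers. Accessible regions usually lie close together around active genes, and lone ones are found where genes are sparse, at single promoters, at distal enhancers or at sites bound by CTCF, the factor that anchors chromatin loops. Which genes lie near the regions was not analysed here, since no annotation or sequence of the build of the files, read as mm9, was used.

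Libraries held 4679644 to 7262297 counts in listed regions in WT and 5296643 to 7040224 in KO. Of these, 24710 to 44103 counts per library lay in isolated regions. An isolated region held 19 to 35 counts per library in the median, so single regions were measured with large counting error.

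Isolated regions were weak and narrow. Their median level was 4.55 CPM (the count scaled to the total in all listed regions of that library, mean over the 12 libraries), against 6.87 CPM in all other autosomal regions and 6.22 CPM in those of them that are also under 2000 bp wide. Their interquartile range was 2.51 to 7.32 CPM, and that of the others 3.85 to 13.9 CPM. Strong regions were scarce: 29 of 896 (3.24%) exceeded 20 CPM, against 17.1% of the others and 9.79% of the others under 2000 bp. A further 160 (17.9%) lay under 2 CPM, against 9.04% and 9.94%. The median width was 528.5 bp, against 725 bp in the others and 677 bp in the others under 2000 bp. Per kb of width the levels were close, with medians of 9.11 CPM per kb in isolated regions and 9.61 CPM per kb in the other autosomal regions under 2000 bp. These values describe the lists and were not tested.

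The same gradient was seen among all autosomal regions under 2000 bp when they were split by distance to the nearest listed region. The median level was 6.55 CPM for those with a neighbour within 2 kb, 6.45 CPM at 2 to 10 kb, 6.01 CPM at 10 to 30 kb, 5.39 CPM at 30 to 100 kb and 4.55 CPM beyond 100 kb. The median width fell over the same classes from 730 bp to 528.5 bp. The level per kb did not follow this order, with 9.18 CPM per kb in the closest class and 9.83 CPM per kb at 10 to 30 kb. Within the isolated regions, the 299 closest to a neighbour had a median of 4.96 CPM and the 299 farthest from one had 4.10 CPM.

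**Figure D1:**
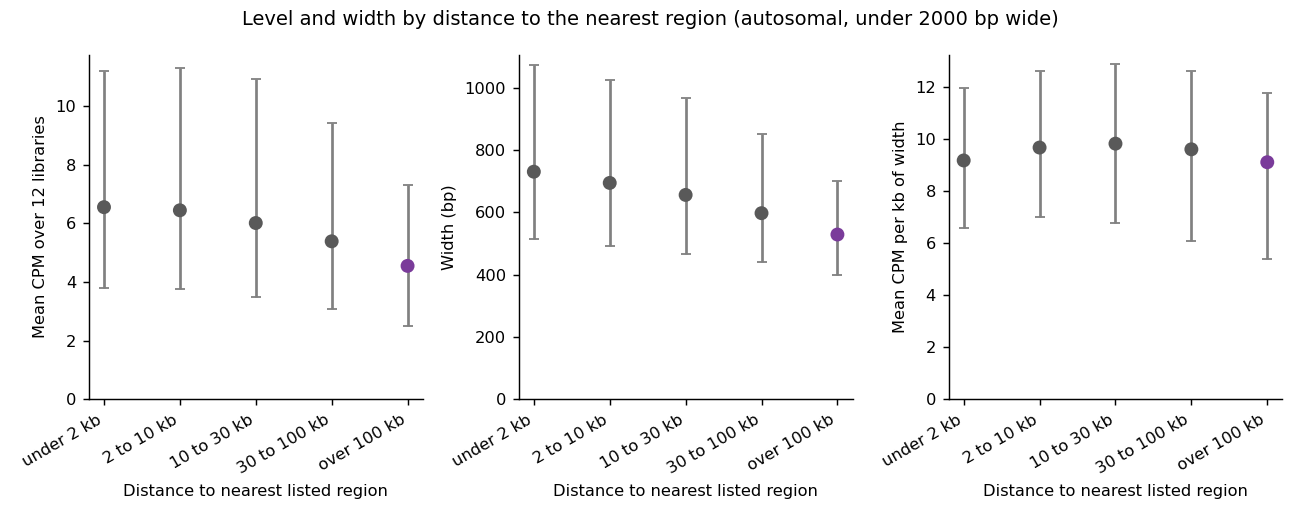
Median (point) and interquartile range (bar) of the mean level in CPM, the width in bp and the level in CPM per kb of width, for autosomal regions under 2000 bp in 5 classes of distance to the nearest listed region. Level and width decline from the closest class to the isolated regions (purple, over 100 kb; 4.55 CPM and 528.5 bp), while the level per kb stays between 9.11 and 9.83.

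The distance to the nearest region had a median of 136959 bp among the members and a range of 100168 to 877029 bp; 173 members had no region within 200 kb and 10 none within 500 kb. Of the 896, 484 had another isolated region as a direct neighbour, and the longest unbroken run held 6. The rule leaves a gap over 100 kb on each side of a member, so every direct neighbour already meets part of it. No expected share was computed. Whether the values break at the limits of the rule was not tested, and single regions on either side differed in level. The member nearest to the distance limit, chr17:4278299-4278712, had its neighbour at 100168 bp and a level of 4.54 CPM, and the closest region outside it, chr11:31373322-31373832, had its neighbour at 99969 bp and a level of 7.71 CPM. The width limit left out 14 regions that were otherwise as far from others. The narrowest of these, chr5:69731310-69733371, was 2062 bp wide with 30.8 CPM, and the widest member, chr3:98944485-98946433, was 1949 bp wide with 62.3 CPM. A region too weak to be listed does not count as a neighbour, and how much of each gap can be mapped was not analysed here.

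All 19 autosomes held isolated regions, at densities of 16.0 to 51.9 per 100 Mb of the span between the first and last listed region. Chromosome 3 had the highest density, with 81 members, followed by chromosome 12 with 50.8 per 100 Mb and 60 members. Chromosome 11 had the lowest, with 19 members, and was also the one with the most listed regions per Mb (37.9, against 29.1 on chromosome 3). The order was not simply the reverse of the density of all regions: chromosome 7 had 29.0 listed regions per Mb and only 28.1 isolated ones per 100 Mb.

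**Figure D2:**
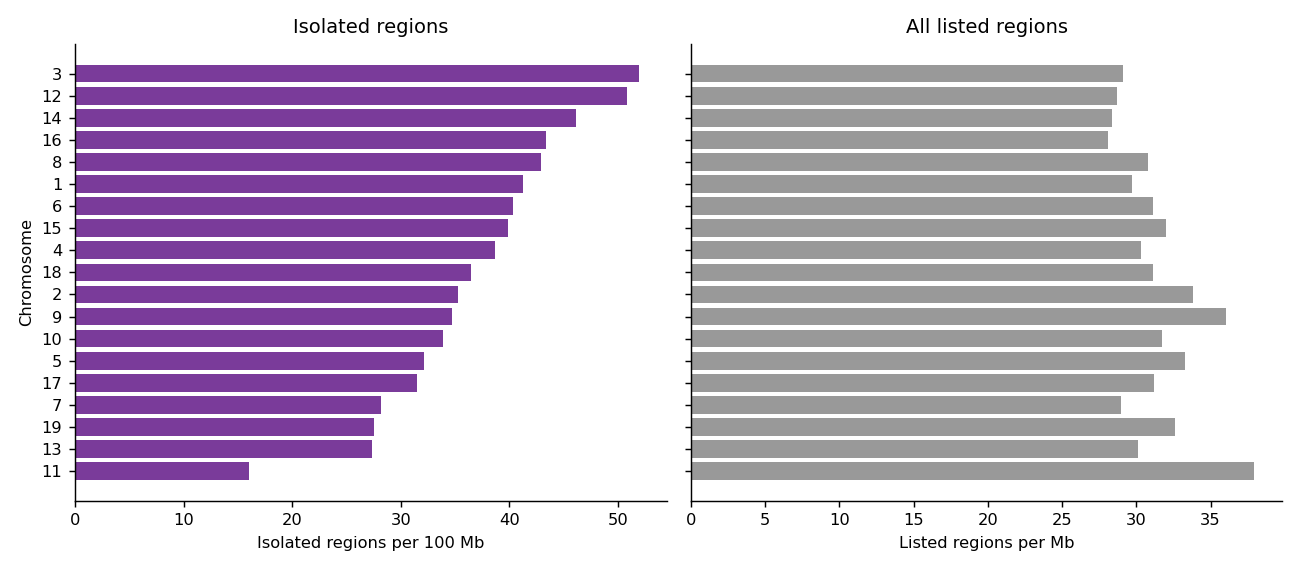
Isolated regions per 100 Mb (left) and all listed regions per Mb (right) for each autosome, ordered by the left value. Chromosome 3 (51.9) and chromosome 12 (50.8) lead and chromosome 11 (16.0) is last.

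The strongest isolated regions did not pass the test for a difference between genotypes, which does not show that the genotypes are equal there. Their standard errors were below the median of 0.315 among isolated regions tested. The 5 with the highest levels had mean levels of 46.8 to 89.0 CPM and log2 fold changes of KO against WT between -0.14 and -0.07, each with a standard error of 0.102 to 0.110. The highest, chr5:8621999-8623875, had 91.9, 97.2, 97.9, 87.5 and 86.9 CPM in WT libraries 3-4, 3-7, 4-2, 4-3 and 4-4, and its KO libraries ran from 59.5 over a median of 90.8 to 93.8 CPM. Apart from KO library 2-3 at 59.5 CPM the genotypes covered the same range (-0.12 on the log2 scale, SE 0.102; adjusted p = 0.645 by edgeR). The second, chr9:19426191-19427054, was also the second most remote member, with gaps of 1113293 and 762037 bp on its sides. Its WT values were 88.5, 78.2, 90.0, 83.5 and 73.9 CPM in the same order, and KO ran from 65.3 over a median of 78.9 to 92.8 CPM. Both genotypes spread over about the same values there (-0.07 on the log2 scale, SE 0.104; adjusted p = 0.802 by edgeR). At 864 bp it was the narrowest of the 5 by far, with the others 1550 to 1949 bp wide. Next in level were chr3:98944485-98946433 with 62.3 CPM, chr3:5575465-5577014 with 54.3 CPM and chr13:65213312-65214942 with 46.8 CPM.

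The most remote member of all, chr7:92924090-92924872, lay 980554 and 877029 bp from its neighbours. It had 10.3 ± 2.36 CPM in WT (SD, n = 5) and 11.3 ± 3.37 CPM in KO (SD, n = 7), a difference within the spread of the libraries (0.12 on the log2 scale, SE 0.218; adjusted p = 0.858 by edgeR). The third most remote, chr14:7119414-7120154, had 9.91 ± 3.50 CPM in WT (SD, n = 5) and 6.67 ± 2.04 CPM in KO (SD, n = 7), with overlapping values and a log2 fold change of -0.60 (SE 0.25) that missed the threshold (edgeR adjusted p = 0.248).

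The comparison of KO with WT asked where accessibility depends on ACTL6B. Of the 896 isolated regions 820 held enough counts to be tested. In KO 4 of them were more accessible and 3 less accessible at an adjusted p under 0.05 (edgeR, adjusted over all 73346 regions tested). These counts are shares of 0.488% and 0.366%, near the background: over all regions tested, 0.525% were called higher and 0.285% lower, or 0.81% in either direction. The fit and single libraries moved these counts, and the shares over all regions moved with them. DESeq2 gave 9 gains and 5 losses (1.13% and 0.630%, with 1.13% and 0.603% of all regions), and a covariate for the number that opens the culture code gave 11 and 6 (1.34% and 0.732%, with 1.31% and 0.689%). There were 18 gains and 5 losses without WT library 4-3 (2.16% and 0.601%, with 1.57% and 0.564%) and 10 and 7 without KO library 2-3 (1.23% and 0.860%, with 1.20% and 0.704%). Between 0 and 2 of each were called when WT library 3-4, 3-7, 4-2 or 4-4 or KO library 3-2, 3-3, 4-7 or 4-8 was left out, in fits that called 0.0917% to 0.334% of all regions higher and 0.0364% to 0.146% lower. At an unadjusted p under 0.05, 78 members were higher and 37 lower, or 9.51% and 4.51%, against 7.88% and 6.37% of all regions tested. The lists differ in level, with medians of 4.55 CPM in members and 6.83 CPM in all listed regions. No share at an unadjusted p was computed for others of like CPM, so this gap is not read as a trait of isolated regions. All 4 gains were at least 2-fold, and so was 1 of the 3 losses.

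The largest called gain was at chr17:36644708-36645226, a 519 bp region with gaps of 152004 and 280452 bp. It had 0.384, 1.28, 0.906, 2.54 and 0.826 CPM in WT libraries 3-4, 3-7, 4-2, 4-3 and 4-4, from 2 to 14 counts each, and ran in KO from 2.15 over a median of 4.94 to 6.64 CPM. KO libraries 4-7 and 3-3 were highest, and only WT library 4-3, at 2.54, reached into the KO range. The filter on low counts asks for enough counts in as many libraries as the smaller genotype has, 5. The WT libraries alone, with 2 to 14 counts, would not have met it, and the KO libraries held 15 to 46 counts. The region was thus tested only through the genotype in which it is high, and its call carries that limit. KO exceeded WT by 1.84 on the log2 scale (SE 0.448; adjusted p = 0.0322 by edgeR). Over the 17 alternatives the adjusted p ran from 0.00597 to 0.104, and the threshold was missed when WT 3-4 (0.104), WT 3-7 (0.0627), WT 4-2 (0.0870), WT 4-4 (0.104), KO 3-3 (0.0853), KO 4-7 (0.0961) or KO 4-8 (0.0613) was left out.

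The gain with the smallest adjusted p was at chr10:15269799-15270581, 783 bp wide and more than 200 kb from any other. Its WT libraries had 6.14, 9.83, 6.95, 9.97 and 5.51 CPM in the order above, and its KO libraries ran from 11.1 over a median of 16.4 to 21.5 CPM. Every KO library lay above every WT library, with KO 1-1 highest. The gain was 1.05 on the log2 scale (SE 0.211; adjusted p = 0.00757 by edgeR), and among the 7 called members this one lost its call only without WT library 4-4 (0.0531). Its adjusted p over the alternatives ran from 8.65e-04 to 0.0531.

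At chr9:81043625-81044411, with gaps of 337007 and 387560 bp, WT libraries had 7.10, 4.06, 3.62, 9.60 and 2.48 CPM and KO libraries ran from 7.36 over a median of 11.98 to 16.6 CPM. WT library 4-3 again lay inside the KO range. The fitted gain was 1.08 on the log2 scale (SE 0.267; adjusted p = 0.0353 by edgeR). Alternatives gave an adjusted p of 0.00351 to 0.151, above the threshold when WT 3-4 (0.0593), WT 3-7 (0.103), WT 4-2 (0.122), WT 4-4 (0.151), KO 3-2 (0.0856), KO 3-3 (0.105), KO 4-7 (0.0730) or KO 4-8 (0.0714) was dropped.

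The fourth gain, chr6:98460384-98461037, barely passed the threshold. WT libraries had 1.73, 2.14, 4.23, 8.34 and 4.82 CPM and KO libraries ran from 5.28 over a median of 9.18 to 13.9 CPM. KO library 4-8 was low and WT library 4-3 high, so the groups overlapped. Its gain was 1.10 on the log2 scale (SE 0.290; adjusted p = 0.0489 by edgeR), and 11 of the 17 alternatives took it past the threshold, within a range of 0.00470 to 0.170. These were scaling by total counts (0.0518), no filter on low counts (just over the threshold), and the fits lacking WT 3-4 (0.170), WT 3-7 (0.143), WT 4-2 (0.115), WT 4-4 (0.106), KO 1-1 (0.0593), KO 3-2 (0.0875), KO 3-3 (0.0934), KO 3-5 (0.0531) or KO 4-7 (0.138).

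The called losses had mean levels of 6.30, 14.1 and 25.1 CPM, and the called gains 3.03, 7.22, 8.88 and 12.5 CPM. The largest loss, chr13:17306805-17307538, had 14.8, 5.56, 6.34, 10.7 and 8.12 CPM in the WT libraries and 2.74 to 5.29 CPM in KO, with a median of 4.61. The groups did not overlap, but the highest KO library (5.29) and the lowest WT library (5.56) were close. The loss was -1.10 on the log2 scale (SE 0.273; adjusted p = 0.0361 by edgeR). It did not pass when WT 3-4 (0.209), WT 4-4 (0.0847), KO 3-2 (0.0689), KO 3-3 (0.0631), KO 4-7 (0.0923) or KO 4-8 (0.0670) was absent, and all alternatives lay between 0.0141 and 0.209.

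At chr10:46546391-46547231 the WT libraries had 22.1, 16.7, 14.6, 22.3 and 15.0 CPM and the KO libraries ran from 9.03 over a median of 11.2 to 12.9 CPM, again without overlap. KO fell short of WT by a log2 change of -0.71 (SE 0.181; adjusted p = 0.0414 by edgeR). The adjusted p ranged over the alternatives from 0.0120 to 0.151 and was over the threshold in the fits lacking WT 3-4 (0.151), WT 3-7 (0.0719), WT 4-3 (0.0642), WT 4-4 (0.0736), KO 3-2 (0.0962), KO 3-3 (0.0811), KO 4-7 (0.0884) or KO 4-8 (0.0865).

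The third loss was in one of the widest members, chr5:71233145-71234998, at 1854 bp. WT libraries had 33.8, 28.4, 31.4, 36.8 and 25.9 CPM and KO libraries ran from 15.3 over a median of 20.9 to 25.2 CPM. The highest KO library, 4-8, lay just under the lowest WT library, 4-4. Here the log2 change was -0.61 (SE 0.141; adjusted p = 0.0209 by edgeR). Among alternatives with values of 0.00590 to 0.0765, only those that dropped WT 3-4 (0.0765), WT 4-2 (0.0525), KO 3-2 (0.0565) or KO 3-3 (0.0561) lost the call.

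**Figure D3:**
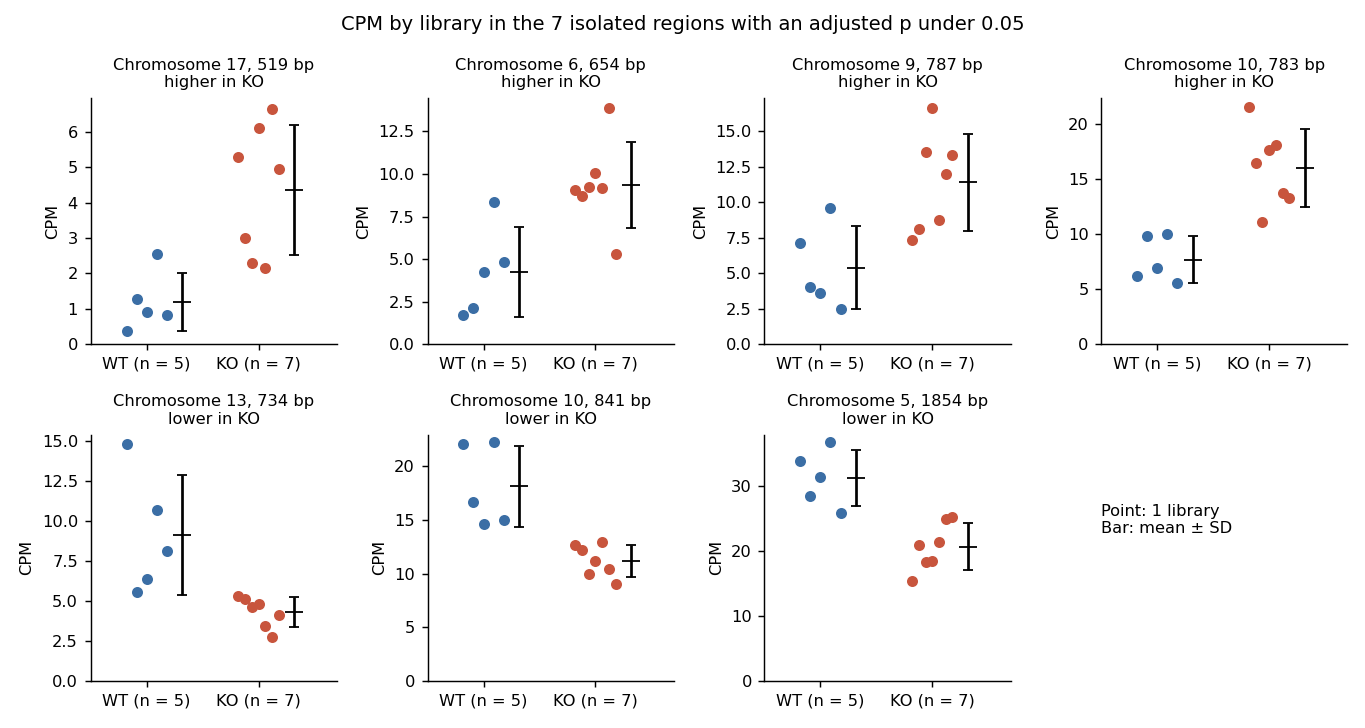
CPM of each library in the 7 isolated regions with an edgeR adjusted p under 0.05, with points for the 5 WT (blue) and 7 KO (red) libraries and bars for the mean ± SD. In the chromosome 10 gain (783 bp) and in the 3 losses the genotypes do not overlap, and in the other 3 gains they do.

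Codes in the library titles start with 1, 2, 3 or 4, and only 3 and 4 occur in both genotypes; the labels do not say what the numbers mark. In all 7 called members the ratio of mean CPM in KO to that in WT pointed the same way within each number, which is largely fixed by choosing these regions for a difference over the same libraries. For the chromosome 10 gain the log2 ratio of means was 0.97 among codes starting with 3 (3 KO, 2 WT) and 0.85 among those starting with 4 (2 KO, 3 WT). The chromosome 6 gain was uneven, with 2.30 and 0.72 and overlapping genotypes among codes starting with 4, and so was the chromosome 5 loss, with -0.68 and -0.33.

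In 4 members every KO library lay above every WT library and in 8 every KO library lay below. These are 0.446% and 0.893% of the 896, where 0.662% and 0.622% of all listed regions met the same conditions. All 12 were among the regions tested, where the shares over all regions were 0.674% and 0.649%. Beside the called chromosome 10 region, the separated gains were chr6:44765349-44765877 (1.64 ± 0.727 CPM in WT and 3.70 ± 0.847 in KO), chr15:45814124-45814540 (3.25 ± 0.742 and 5.71 ± 1.41) and chr5:59128107-59129075 (1.75 ± 0.561 and 3.32 ± 0.749; all SD, n = 5 and 7). None of these 3, singled out after their values were seen, passed the test, with edgeR adjusted p-values of 0.184, 0.210 and 0.323. Of the separated losses that were not called, chr19:33664059-33664439 came closest, with 6.55 ± 2.04 CPM in WT and 2.92 ± 0.861 CPM in KO (SD, n = 5 and 7), a log2 change of -1.19 (SE 0.315) and adjusted p = 0.0501 by edgeR. Next was chr1:62394797-62395479, at 11.7 ± 2.24 CPM in WT against 6.60 ± 1.76 in KO (SD, n = 5 and 7; -0.84 on the log2 scale, adjusted p = 0.0605 by edgeR).

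Set beside other regions of like level, isolated regions had a median change close to theirs. The median log2 fold change of the 820 tested was 0.07, with an interquartile range of -0.22 to 0.37, and that of all regions tested was 0.00. Much of this gap went with level. All tested autosomal regions were put into 20 classes of mean CPM. The class medians of the others were then averaged, weighted by the number of isolated regions in each class. This average was 0.08, which leaves a difference of -0.02. A plain median and an average of class medians are unlike measures, so no direction is read from this difference. Here and below, medians given for others of like CPM are such averages. The absolute log2 fold change had a median of 0.27 in isolated regions and 0.30 in the others of like CPM. Called gains made up 0.488% of isolated regions and 0.503% of the others of like CPM, and called losses 0.366% and 0.170%; the losses are 3 regions. Every KO library lay below every WT library in 0.976% of the isolated regions tested (8 regions) and in 0.460% of the others of like CPM, and above in 0.488% (4 regions) and 0.696%, differences that were not tested.

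The spread between libraries was also close to that of other regions of like level. The SD of log2 CPM within WT had a median of 0.46 in isolated regions and 0.50 in the others, and within KO 0.48 and 0.50. In the same classes of CPM the width was 553 bp in isolated regions and 663 bp in the others, with 9.57 and 8.74 CPM per kb. The rule itself caps the width of members, and these others include regions of 2000 bp and over. Without classes of level the density was 9.11 CPM per kb in isolated regions and 9.61 in the others under 2000 bp. These differences were not tested.

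**Figure D4:**
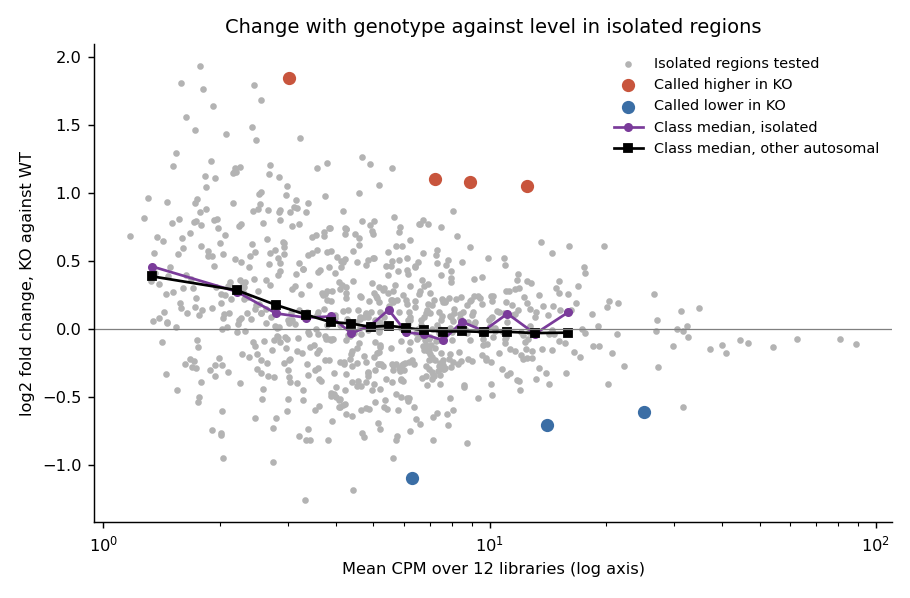
The log2 fold change of KO against WT (vertical) against the mean CPM over 12 libraries (horizontal, log axis) for the 820 isolated regions tested, with the called ones in red and blue and lines for the medians in classes of mean CPM that hold at least 20 isolated regions. In the lowest class the medians are 0.46 (isolated) and 0.38 (other autosomal), and above 4.14 CPM the medians of the others lie between -0.03 and 0.04 and those of the isolated regions scatter between -0.08 and 0.14.

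The shift towards KO lay in the weakest regions. In the lowest 5 classes (0.928 to 4.14 CPM), which hold 332 of the isolated regions tested, the median log2 fold change was 0.25 in isolated regions and 0.19 in the others. In the next 5 classes it was 0.00 and 0.01, and in the 5 after that 0.00 and -0.02. The classes hold only regions that passed the filter on low counts. A weak region meets it more easily when high in KO, with 7 libraries, than when high in WT, with 5. What part this has in the positive medians was not tested. Without the filter the median over all isolated regions was 0.08, against 0.07 with it. The 76 members that were not tested had levels of 0.498 to 1.64 CPM, and the KO mean was above the WT mean in 55 of them. Among all 896, tested or not, the KO mean CPM exceeded the WT mean in 539 (60.2%), against 53.7% of the other autosomal regions. These lists differ in level. Under 2 CPM the shares were 75% and 73.1%, and at 2 CPM and over 56.9% and 51.8%. Among regions tested, the log2 fold change was positive in 57.0% of isolated regions and 55.5% of others of like CPM.

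A few libraries moved with this shift. The 160 members under 2 CPM had a mean of 1.13 ± 0.195 CPM in WT (SD, n = 5) and 1.50 ± 0.390 CPM in KO (SD, n = 7). The WT values were 1.10, 1.16, 1.08, 1.43 and 0.894 CPM in libraries 3-4, 3-7, 4-2, 4-3 and 4-4. KO libraries 3-3 (2.00), 3-2 (1.84), 4-8 (1.66) and 4-7 (1.61) lay above every WT library, while KO 1-1 (1.39), 3-5 (1.08) and 2-3 (0.933) lay within the WT range. The same 4 KO libraries were highest among the 6726 other autosomal regions under 2 CPM, where WT had 1.18 ± 0.163 CPM (SD, n = 5) and KO 1.51 ± 0.381 CPM (SD, n = 7). These 4 libraries also had the fewest isolated regions without a count, 1 to 3 each, against 12 to 18 in the other KO libraries and 9 to 23 in WT. The same was seen in others of like CPM, where 0.202% to 0.720% of regions had no count in these 4 libraries. That share was 1.20% to 1.63% in the other KO libraries and 1.31% to 2.16% in WT. The groups of libraries here were noticed in the data, and what part the libraries have in the result was not tested.

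Over all isolated regions together, genotypes did not separate. Isolated regions took 0.548% ± 0.0304 of the counts in WT (SD, n = 5) and 0.568% ± 0.0441 in KO (SD, n = 7). The WT libraries ran from 0.511% to 0.586% and the KO libraries from 0.487% (KO 2-3) to 0.626% (KO 3-3), so the lowest and the highest share were both in KO. The difference of 0.0196 percentage points was smaller than the SD within genotypes, 0.0392. It fell to 0.00985 without KO library 3-3 and to 0.0104 without WT library 4-4, and was 0.0331 without KO library 2-3. Measured as the median deviation of log2 CPM from each region's mean over 12 libraries, isolated regions less others of like CPM differed by 0.01 ± 0.03 in WT (SD, n = 5) and by -0.02 ± 0.05 in KO (SD, n = 7), with KO libraries 3-5 (0.07) and 2-3 (-0.08) at the ends.

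**Figure D5:**
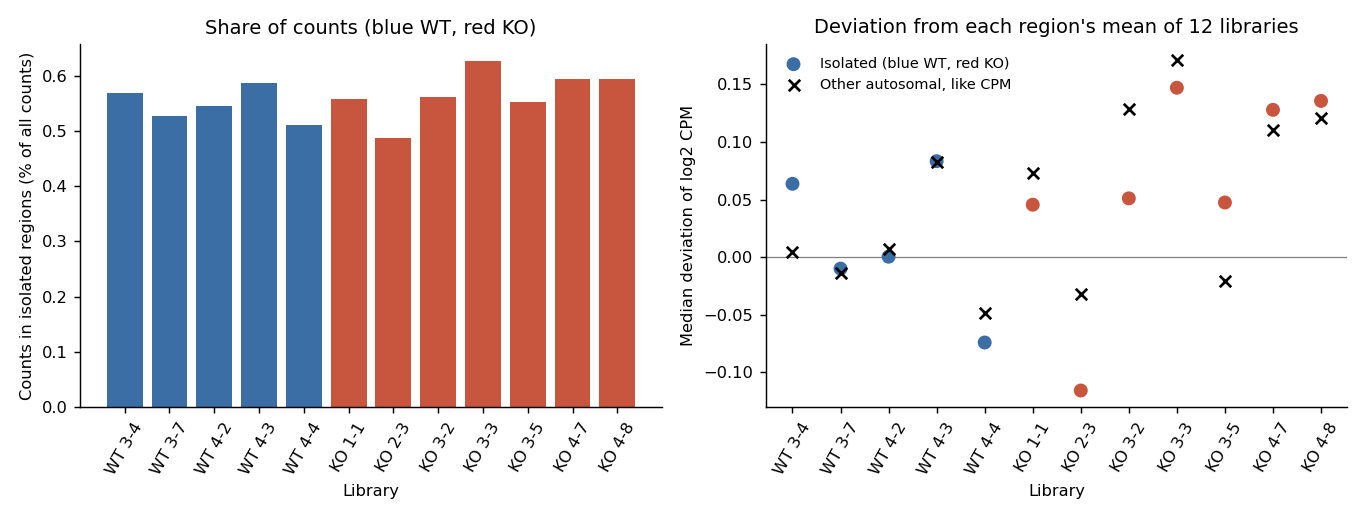
Left, counts in isolated regions as a percentage of all counts in listed regions for each library (WT blue, KO red); right, the median deviation of log2 CPM from each region's mean over 12 libraries, in isolated regions (points) and in other autosomal regions of like CPM (crosses). The shares run from 0.487% to 0.626% with both ends in KO, and points and crosses lie within 0.03 of each other in 8 libraries and farther apart in WT 3-4 and KO 2-3, 3-2 and 3-5.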

How the data were processed

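Deposited ATAC-seq files give whole-number counts in the same 76570 regions for each of the 12 libraries. Among tools, the submitters' processing notes list Trim Galore, Bowtie2, MACS2 and bedtools, with 2 builds, mm9 and mm10. Not given in the sources used here are the way the regions were called and any shift of reads to the Tn5 cut. Coordinates were read as mm9, since chromosome 1 holds a region up to 197068294, which is past its end in mm10. Starts were read as counted from 0, as in BED, and are printed from 1.

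The test of KO against WT was run on these counts with R 4.3.3 and edgeR 4.0.16 (quasi-likelihood F-test, robust, TMM, filterByExpr by group, Benjamini-Hochberg over all regions tested, threshold 0.05), with groups taken from the titles. The code was tested on simulated data. Each standard error is the absolute log2 fold change divided by the root of F. Log2 CPM used a prior count of 2. Named regions are up to 8 called members per direction with at least 1 CPM, the 5 strongest and the 3 most remote. The members, lists and rules were chosen with earlier results of these data known. Alternatives covered DESeq2 1.42.0, scaling, the filter, a covariate, other limits and leaving out each library. RNA-seq files were not used here.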

Additional observations from a re-analysis of the deposited data

Results flagged for a closer look

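Among the 14 named regions and 4 measures per library, 36 groups of 5 or 7 libraries were checked for a library whose gap to the nearest other exceeds Dixon's 95% limit. In 2 groups such a library was found. Chance alone gives about 1 in 20 groups, and 2 of 36 is near that share. At chr5:8621999-8623875, the strongest isolated region, KO library 2-3 had 59.5 CPM and the nearest other KO library 88.9 CPM. At chr3:5575465-5577014, WT library 3-4 had 67.0 CPM and the nearest other WT library 55.1 CPM.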

How the results depend on the processing

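The 4 called gains became 9 with DESeq2, 11 with a covariate for the number that opens the culture code (no other library shares it with KO 1-1 or with KO 2-3), 1 at an adjusted p under 0.01, 18 at an isolation distance of 50 kb and 2 at 200 kb. The 3 called losses became 5, 6, 0, 9 and 0 under the same changes. At an adjusted p under 0.01 the count of 0 losses is edgeR's, and 37 members were lower at an unadjusted p under 0.05. Over all regions tested, 1.13% were higher and 0.603% lower with DESeq2, 1.31% and 0.689% with the covariate, and 0.0845% and 0.0300% at an adjusted p under 0.01. At 50 and 200 kb, 3483 and 173 regions counted as isolated, of which 3228 and 157 were tested. Of those tested, 0.558% and 1.27% were gains and 0.279% and 0% losses. The fit is the same as before, with 0.525% of all regions tested called higher and 0.285% lower. When each library was left out in turn, gains ran from 0 to 18 and losses from 0 to 7. Over all regions the same fits called 0.0917% to 1.57% higher and 0.0364% to 0.704% lower. Dropping WT 3-4, 3-7, 4-2, 4-3 and 4-4 in turn gave 1, 1, 1, 18 and 0 gains, and dropping KO 2-3, 3-2, 3-3, 4-7 and 4-8 gave 10, 2, 1, 1 and 2. For losses, WT 3-4, 4-3 and 4-4 gave 0, 5 and 1, and the same KO libraries 7, 0, 0, 1 and 1. The cause was not tested. The median level of 4.55 CPM was 4.94 CPM among members that passed the filter on low counts, which removes weak ones, and 9.11 CPM per kb in the unit per kb of width. The median log2 fold change stayed between 0.04 and 0.12 over all alternatives. The difference from regions of like CPM lay between -0.04 and 0.02. With the same 896 members, the difference in the share of counts lay between 0.00985 and 0.0331 percentage points. It was 0.0565 for the 3483 regions at 50 kb and 0.00778 for the 173 at 200 kb. A summed share grows with the number of regions, so these 2 values are not like the others. Leaving out the 4 members at a chromosome end, chosen after seeing the data, left 4 gains and 3 losses. No paired analysis was possible because no culture code occurs in both genotypes. What depth limits was not tested, and an isolated region held 19 to 35 counts per library in the median.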
